A study of Sus scrofa with 21 samples.

Results

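A bare Nitinol wire that had been passed through an artery was compared with whole blood from the same pigs. The members are 6 of the 21 libraries of the series, chosen by their labels: all 4 libraries labelled Nitinol wire, and 2 of the 3 libraries labelled Blood. Wire 1 came from a peripheral liver artery and wire 4 from a peripheral kidney artery of pig 243K, and wire 2 from a kidney artery and wire 3 from a liver artery of pig 248K. Blood 1 came from pig 243K and blood 3 from pig 248K. The third blood library, blood 2 of pig 243K, held 5633 counts over 302 genes and was left out. The labels name no drug, genotype, age or cell sort for any of these libraries. The rest of the series holds 10 libraries from a microbrush used in liver and kidney arteries of the same pigs and 4 from surgically removed aorta of pig 237053. In that design the wire without a brush is the negative control for a device meant to collect endothelial cells, the cells that line a vessel.

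A wire in an artery touches flowing blood and the inner face of the vessel wall. Platelets are cell fragments without a nucleus that circulate in blood. They carry RNA left from the megakaryocyte that shed them and stick to foreign surfaces and to exposed matrix through surface receptors. Red cells carry haemoglobin, white cells carry the genes of immunity, and the wall itself holds endothelium, smooth muscle and a matrix of collagen and elastin. The comparison therefore asks which of these RNAs were more or less abundant in the material on the wire than in the blood around it. In bulk libraries such as these, fewer cells of a type and less RNA per cell cannot be told apart.

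The wires of pig 248K held the fewest genes of the 6 libraries. Total counts ran from 1946284 to 11128399 on the wires and were 5301283 and 3224532 in blood. At a fixed depth of 1000000 counts wires 1, 2, 3 and 4 had 14955, 9394, 8891 and 17644 genes, against 17464 in blood 1 and 18835 in blood 3. The wire mean was 12721 ± 4280 genes (SD, n = 4) and the blood mean 18149.5 ± 969.4 (n = 2), with an exact two-sided permutation p = 0.2, where 15 splits allow no p below 0.0667. A pair of abundant identifiers without a name in the files, ENSSSCG00000018063 and ENSSSCG00000018061, took 26.6% to 49.2% of wire counts and 4.33% to 6.37% of blood counts. The pig of a wire and the gene content of its library cannot be told apart here. Libraries of the same pig are not separate animals, and p-values below measure the spread between libraries only.

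Of 16461 genes tested, 8 rose on the wire (0.0486%) and 0 fell (0%) at an edgeR adjusted p under 0.05. TAGLN, SMTN, GNG11 and LAMA5 were among them, which encode 2 actin-binding proteins of smooth muscle, a G protein subunit and a basement membrane chain. At an unadjusted p under 0.05 the counts were 328 higher (1.99%) and 396 lower (2.41%), and the smallest adjusted p among lower genes was 0.190 (edgeR). DESeq2 called 236 genes higher, these 8 among them, and 0 lower. Limma voom called 43 higher, with only 1 of these 8 among them, and 2 lower. The median log2 fold change over all genes was -0.34 with TMM scaling and 0.08 with RLE scaling, so small differences below depend on the scaling. Without wire 2, without wire 4 or without blood 3 no gene passed in edgeR, and with blood 1 left out 2 did. Without wire 1 there were 24, all higher, and without wire 3 there were 8, of which 4 were also called with all 6 libraries.

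**Figure D1:**
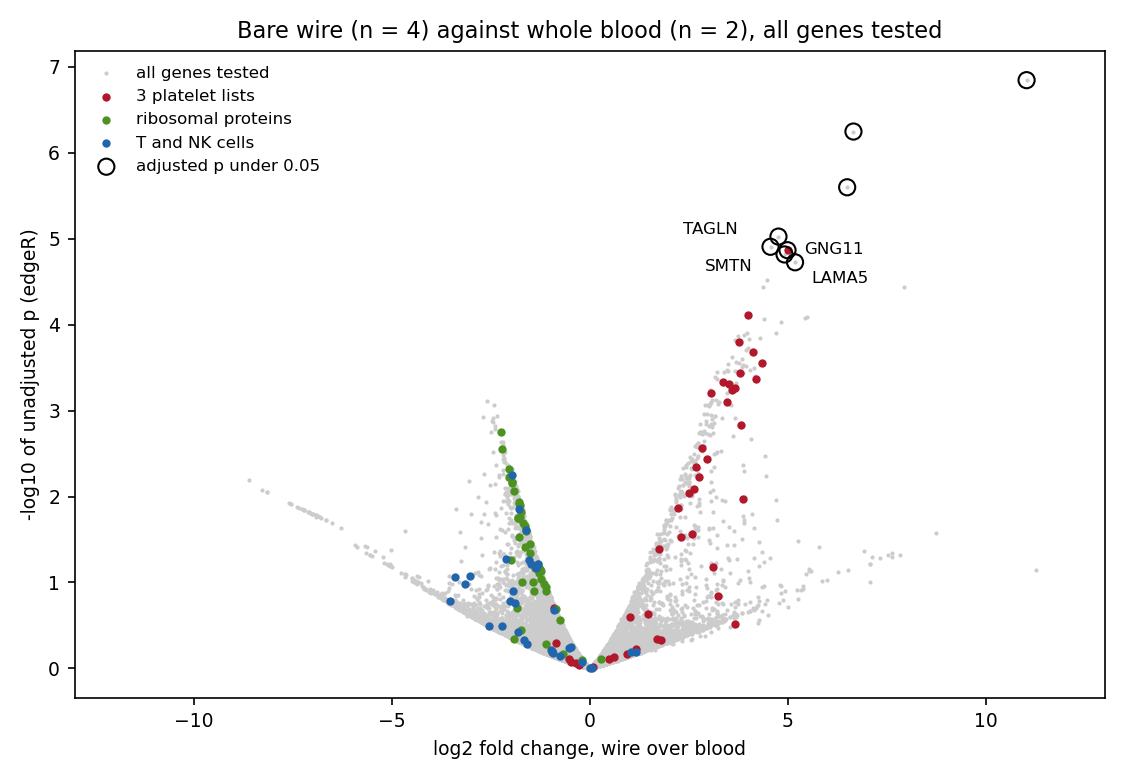
Each point is one of the 16461 genes tested, with the log2 fold change of wire over blood on the x axis and -log10 of the unadjusted edgeR p on the y axis. Circles mark the 8 genes with an adjusted p under 0.05, all to the right of 0; platelet genes (red) spread to the right, and ribosomal protein genes (green) and T and NK cell genes (blue) lie mostly to the left.

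GNG11 (chr9:73721327-73726229, Sscrofa11.1, from RefSeq by symbol) encodes a gamma subunit of heterotrimeric G proteins that is abundant in platelets. It stood at 207, 195.7, 851 and 163.7 CPM (counts per 1000000 after TMM scaling) in wires 1 to 4 and at 19.4 and 2.83 CPM in blood. Wire 3 was far above the other wires, and no wire overlapped blood. Its fold change was 4.99 on the log2 scale (SE 1.03, edgeR adjusted p = 0.0358).

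TAGLN (chr9:44561756-44567385) encodes transgelin, an actin-binding protein of smooth muscle. It stood at 88.8, 257, 379 and 112.3 CPM in the wires and at 12.7 and 4.91 CPM in blood. The wires of pig 248K were the higher pair for this gene. On the log2 scale the fold change was 4.56 (SE 0.94, edgeR adjusted p = 0.0358).

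SMTN (chr14:47879317-47902700) encodes smoothelin, a protein of contractile smooth muscle. It stood at 87.7, 140.5, 163.1 and 26.4 CPM in the wires and at 5.72 and 1.13 CPM in blood. Wire 4 had the lowest level of the wires and was still above both blood libraries. This gave a log2 fold change of 4.92 (SE 1.02, edgeR adjusted p = 0.0358).

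LAMA5 (chr17:61698370-61747795) encodes the alpha 5 chain of laminin, a component of the basement membrane under endothelium. It stood at 104.7, 50.7, 14.5 and 187.8 CPM in the wires and at 2.03 and 2.83 CPM in blood. Here the order of the pigs was turned, with both wires of pig 243K above both wires of pig 248K. LAMA5 had a log2 fold change of 5.18 (SE 1.09, edgeR adjusted p = 0.0387).

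A further 3 genes called have no name in the files, and a pair of them is given here, picked after the values were seen. ENSSSCG00000038256 stood at 51.2, 98.4, 34.6 and 59.1 CPM in the wires and had no count in blood. Against a floor of 3 counts over the blood group (0.280 CPM) its mean on the wire was at least 217-fold higher (edgeR adjusted p = 0.00235). ENSSSCG00000020580 stood at 844, 215.8, 187.8 and 220.1 CPM in the wires and at 6.64 and 0.567 CPM in blood (log2 fold change 6.66, SE 1.14, edgeR adjusted p = 0.00465). Each was above both blood libraries in all 4 wires.

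Platelet genes were among the genes most often above blood in every wire. They were read in 3 lists, for granule contents, surface receptors, and cytoskeleton and signalling, with 44 members tested. Only GNG11 passed over all genes in edgeR. Every wire lay above both blood libraries for 7 of 13 granule genes, 5 of 14 receptor genes and 13 of 17 cytoskeleton and signalling genes, where the same held for 2.95% of all genes tested. Below both blood libraries in every wire lay 1 granule gene, 1 receptor gene and 0 cytoskeleton and signalling genes, beside 14.8% of all genes. The fold change was negative for 3 granule genes, 3 receptor genes and 1 cytoskeleton and signalling gene, where it was positive for 37.9% of all genes. The median log2 fold changes were 2.51, 2.19 and 2.84, against -0.34 over all genes. DESeq2 called 6, 5 and 13 members of these lists higher, and 1.43% of all genes.

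Granule contents are the proteins a platelet releases when it is activated. PPBP (chr8:70021468-70022490), the precursor of a platelet chemokine, stood at 426, 85.9, 1294 and 318 CPM in wires 1 to 4 and at 63.5 and 19.5 CPM in blood. Wire 2 was close to blood 1 and wire 3 was the highest by a wide margin. The log2 fold change of 3.68 (SE 0.99) did not pass in edgeR (adjusted p = 0.159). CLU, which encodes the chaperone clusterin, stood at 746, 338, 2220 and 655 CPM against 90.8 and 22.3 (log2 fold change 4.13, edgeR adjusted p = 0.128). SELP, the adhesion receptor P-selectin that moves from granules to the surface, stood at 93.3, 29.9, 293.9 and 52.3 CPM against 14.9 and 5.67. F13A1, the clot-stabilising factor XIII A chain, stood at 1753, 1906, 9231 and 1640 CPM against 386 and 131.5. In all 3 of these genes no wire overlapped blood. The adhesive protein gene THBS1, at 1132, 1010, 3223 and 832 CPM against 360.5 and 137.7, and the clotting factor gene F5, at 827, 345, 1922 and 1292 CPM against 275.5 and 108.8, were also above blood in every wire.

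Among the receptors, TREML1, a receptor kept in platelet and megakaryocyte granules, stood at 73.5, 73.1, 384 and 71.4 CPM in the wires and at 15.5 and 6.42 CPM in blood. Wires 1, 2 and 4 were nearly equal and wire 3 stood apart. TREML1 had a log2 fold change of 3.78 (edgeR adjusted p = 0.1096). ITGB3, the beta 3 integrin that binds fibrinogen, stood at 464, 177.9, 1645 and 338 CPM against 69.6 and 24.8. GP1BB, a chain of the receptor for von Willebrand factor, stood at 34.8, 67.4, 170.3 and 50.02 CPM against 7.38 and 5.86. Its partner gene GP9 stood at 37.8, 43.2, 109.3 and 16.8 CPM against 8.67 and 8.50, the narrowest gap of these receptors. GP6, the collagen receptor of platelets, was nearly level over the wires at 24.7, 23.9, 25.01 and 19.1 CPM, against 2.21 and 2.65 in blood. Wire 3, the highest wire for the other receptors named here, did not stand apart for GP6.

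The cytoskeleton and signalling list held the highest levels. TUBB1 (chr17:59161420-59168385), the tubulin of the ring that shapes a platelet, stood at 1085, 1390, 5813 and 1008 CPM in the wires and at 181.4 and 71.4 CPM in blood. No wire overlapped blood, and wire 3 was the highest. TUBB1 had a log2 fold change of 4.20 (SE 1.11, edgeR adjusted p = 0.142). MYL9, a myosin light chain of platelets and of smooth muscle, stood at 1782, 1698, 5833 and 1256 CPM against 178.2 and 82.4. PARVB, which links integrins to actin, stood at 162.7, 130.6, 456 and 86.4 CPM against 20.8 and 5.29 (log2 fold change 4.00, edgeR adjusted p = 0.0934). Wire 3 was also the highest for RGS18, a brake on G protein signalling, at 567, 143.9, 1531 and 444 CPM against 89.5 and 31.9. CAVIN2, a caveolar coat protein, stood at 287, 83.7, 738 and 327 CPM against 39.7 and 29.7, and the myosin kinase gene MYLK at 126.5, 165.5, 386 and 113.7 CPM against 21.6 and 25.9.

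**Figure D2:**
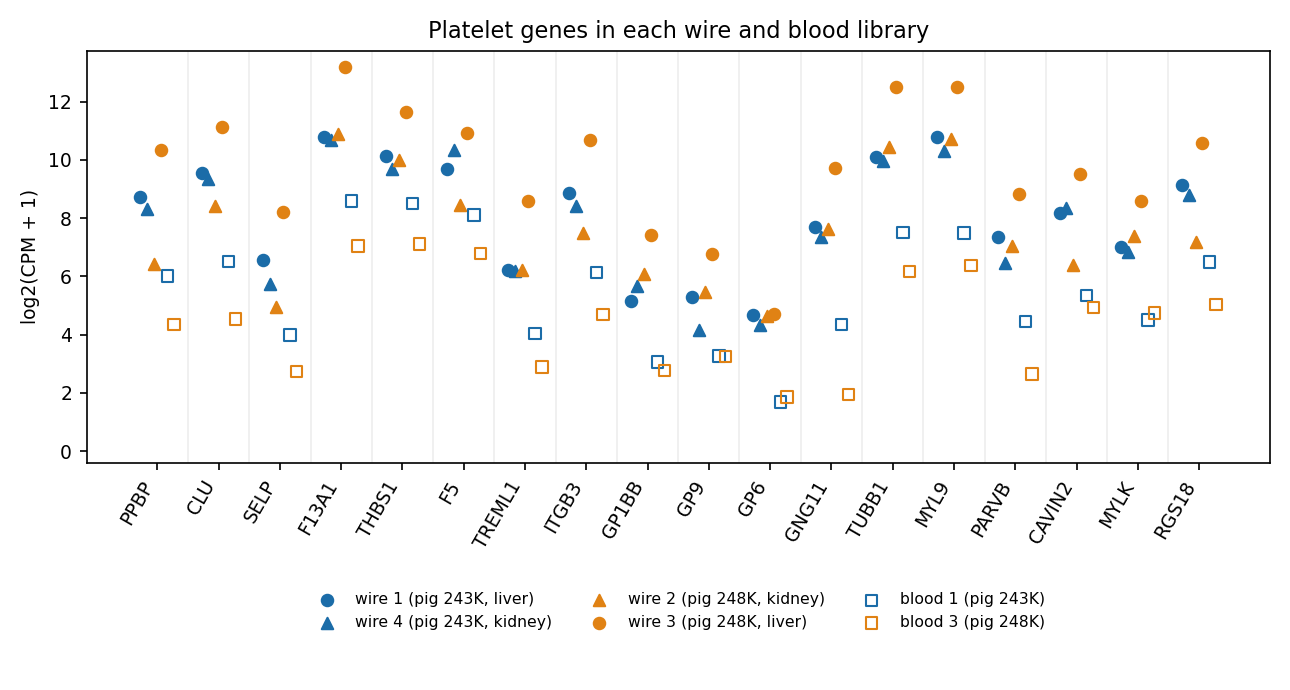
Level of 18 platelet genes as log2(CPM + 1) in each library; filled symbols are wires (circles liver, triangles kidney), open squares are blood, blue is pig 243K and orange pig 248K. The genes shown were picked from the list members that lay above both blood libraries in every wire, some of them after their values were seen. Members that overlapped blood or lay below it are not shown. The filled symbols therefore lie above the open squares for every gene shown. The orange circle of wire 3 is the highest point for all 18 genes, by little for GP6 (25.01 CPM) and by much for TUBB1 (5813 CPM).

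The list medians were above 0 in both pigs and larger in pig 248K. The median of the within-pig differences, on the log2(CPM + 1) scale, came to 1.44 (pig 243K) and 2.03 (pig 248K) for granule genes, 1.35 and 2.37 for receptor genes, and 1.77 and 3.75 for cytoskeleton and signalling genes. TUBB1 had 2.52 and 5.64, and PPBP 2.53 and 5.08. The sizes in pig 248K depend on the scaling, since the TMM factors were 0.514 for wire 3 and 1.65 for blood 3, against 0.994 to 1.13 for the other 4 libraries. With no scaling, the log2 ratio of the share of counts on the wires to that in blood was 1.76 and 2.63 for granule genes, 1.94 and 2.30 for receptor genes, and 1.74 and 2.67 for cytoskeleton and signalling genes. No gene passed the test of whether the difference depended on the pig (0 of 16461, smallest edgeR adjusted p = 0.706), and 523 (3.18%) did at an unadjusted p under 0.05. Together the 3 platelet lists took 1.501%, 1.44%, 2.90% and 1.57% of the counts in wires 1 to 4, against 0.456% in blood 1 and 0.348% in blood 3. Without wires 2 and 3, a choice made after seeing the data, the lists had 6, 4 and 8 members called higher in edgeR and 1 granule gene called lower. In that fit 337 of 16275 genes (2.07%) were higher and 481 (2.96%) lower.

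The megakaryocyte transcription factors, which act in the nucleus of the platelet's parent cell, had a lower median of 0.75 over 7 genes tested. In this list 0 members passed in edgeR and 1 lay above both blood libraries in every wire, beside 2.95% of all genes. That gene was ZFPM1, the cofactor FOG1, at 33.7, 44.7, 31.3 and 41.4 CPM against 6.09 and 6.61. GATA1, the factor it binds, stood at 2.47, 18.9, 54.2 and 10.5 CPM against 2.77 and 1.89, with wire 1 inside the range of blood. MEIS1, a homeobox factor, stood at 116.4, 14.4, 160.0 and 52.3 CPM against 14.4 and 20.6, and FLI1, an ETS factor, at 21.6, 108.7, 57.2 and 32.3 CPM against 133.6 and 81.8.

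TAGLN, SMTN and MYH11 were above blood in every wire, while several matrix genes were high on some wires and at or near blood levels on others. Of 23 smooth muscle genes tested, TAGLN and SMTN rose in edgeR, 0 fell, and 7 lay above both blood libraries in every wire (2.95% of all genes), with a median log2 fold change of 1.35. DESeq2 called 7 of the 23 higher, beside 1.43% of all genes. The fold change was positive for 19 of the 23, beside 37.9% of all genes, and negative for 4. MYH11, the heavy chain of smooth muscle myosin, stood at 759.9, 253, 87.8 and 34.6 CPM in wires 1 to 4 and at 4.61 and 7.94 CPM in blood. No wire overlapped blood, and the wires ranged widely, with wire 1 at the top and wire 4 at the bottom. MYH11 had a log2 fold change of 5.49 (edgeR adjusted p = 0.0934), and with the pig as a block it passed (adjusted p = 0.00405). The smooth muscle list took 0.518% to 0.938% of wire counts and 0.163% in each blood library. Its within-pig median on the TMM-scaled log2(CPM + 1) scale was 1.93 for 243K but only 0.12 for 248K. The unscaled log2 ratio of shares was 1.91 and 2.16, so the gap between the pigs depends on the scaling.

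Matrix genes had the highest median of any list in the fit without the pig as a block, 3.13 over 24 genes tested. With the block it was 0.85, below the medians of the 3 platelet lists (1.44, 1.96 and 2.62). Without the block only 2 matrix genes lay above both blood libraries in every wire (2.95% of all genes) and 0 passed in edgeR. DESeq2 called 6 of the 24 higher, beside 1.43% of all genes. ELN (chr3:11214194-11245891), which encodes elastin, stood at 1331, 0, 16.96 and 772.6 CPM in wires 1 to 4 and at 0.369 and 0 CPM in blood. Both wires of pig 243K were high, wire 3 was low and wire 2 had no count. The edgeR adjusted p was 1 without and 1.78e-06 with the pig as a block, and a fold is not given because the blood libraries held 2 counts and 0 counts. FN1, fibronectin, followed the same split at 1630, 1.14, 28.3 and 1058 CPM against 20.1 and 15.3 in blood. COL5A1, a chain of type V collagen, stood at 99.1, 16.7, 6.12 and 86.8 CPM against 0.369 and 0 CPM (edgeR adjusted p = 0.0544, and 0.0356 with the pig as a block). COL1A1, the type I collagen chain, stood at 154.0, 11.4, 18.2 and 40.9 CPM against 3.88 and 8.31. COL3A1, the type III chain of vessel walls, stood at 139.3, 60.6, 3.50 and 14.6 CPM against 1.85 and 5.48, with wire 3 inside the range of blood.

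The within-pig medians of the matrix list had opposite signs, 4.05 in pig 243K and -0.91 in pig 248K on the log2(CPM + 1) scale. Matrix genes took 0.517% of counts in wire 1 and 0.371% in wire 4. They took 0.0218% in wire 2 and 0.00548% in wire 3, against 0.0109% in blood 1 and 0.0337% in blood 3. The fit with the pig as a block called 16 genes higher (0.0972%) and 1 lower (0.00607%) in edgeR, and all 8 genes of the fit without it were among them.

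**Figure D3:**
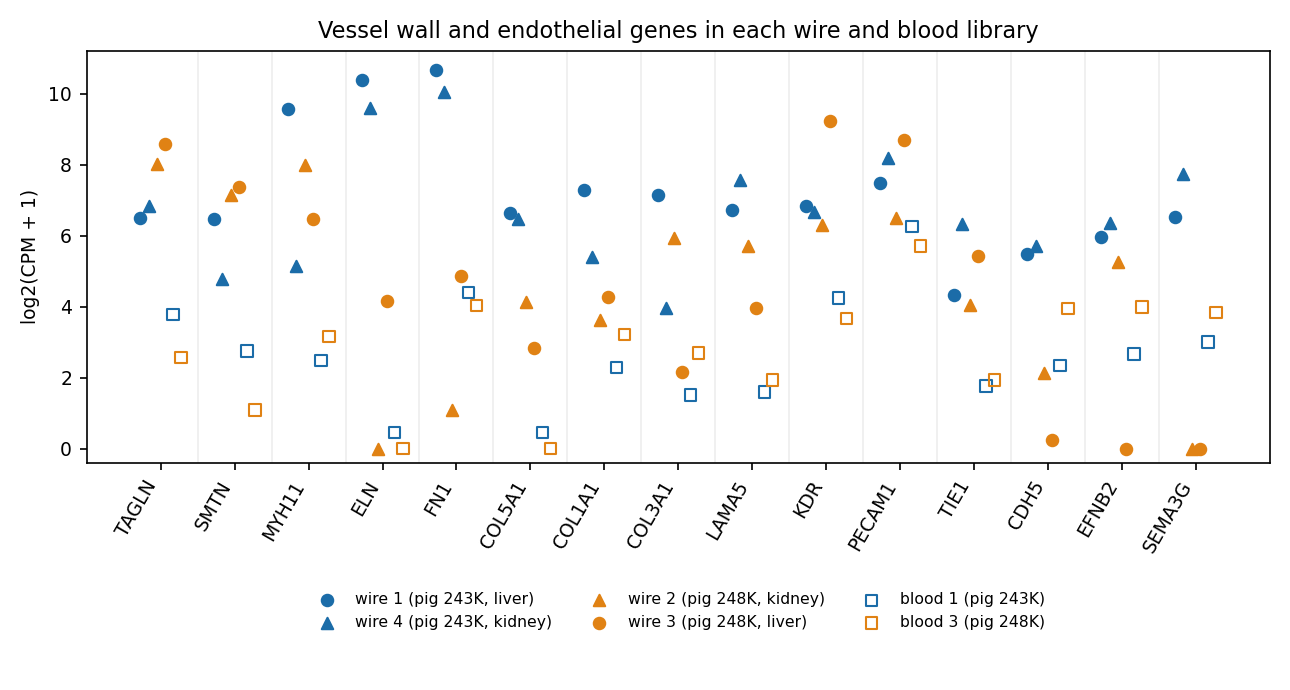
Level of 15 vessel wall and endothelial genes as log2(CPM + 1) in each library; filled symbols are wires (circles liver, triangles kidney), open squares are blood, blue is pig 243K and orange pig 248K. The wires stay above blood for TAGLN, SMTN, MYH11 and LAMA5, while for ELN, FN1, CDH5 and SEMA3G the blue wires are high and the orange wires are near or below the level of blood, apart from ELN in wire 3 (16.96 CPM).

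Endothelial genes gave a mixed picture, and the list had a median of 1.27 over 25 genes tested. In edgeR 0 members passed and in DESeq2 2 did, both higher, beside 1.43% of all genes. Above both blood libraries in every wire lay 6 members, beside 2.95% of all genes. KDR, a receptor for the growth factor VEGF, stood at 112.6, 77.2, 595 and 100.9 CPM in wires 1 to 4 and at 17.9 and 11.7 CPM in blood. Wire 3 was the highest by far, and no wire overlapped blood. KDR had a log2 fold change of 3.90 (edgeR adjusted p = 0.107). PECAM1, an adhesion protein of endothelium, platelets and white cells, stood at 178.0, 88.6, 409.5 and 289 CPM against 75.7 and 51.2. ESAM, an adhesion protein of endothelium and platelets, stood at 26.8, 57.9, 24.0 and 20.9 CPM against 2.21 and 6.23. TIE1, an endothelial receptor kinase, stood at 18.9, 15.5, 42.1 and 79.6 CPM against 2.40 and 2.83, and the water channel gene AQP1 at 74.6, 22.7, 22.9 and 168.7 CPM against 12.5 and 12.5.

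CDH5, the cadherin of endothelial junctions and a defining marker of the type, split by pig. It stood at 43.4 and 51.4 CPM in wires 1 and 4 of pig 243K, at 3.41 and 0.175 CPM in wires 2 and 3 of pig 248K, and at 4.06 and 14.4 CPM in blood. Its log2 fold change was 1.41 without and -1.06 with the pig as a block, and it passed in neither fit (edgeR adjusted p = 1 and 0.969). SEMA3G, a semaphorin of arterial endothelium, stood at 91.3 and 212 CPM in wires 1 and 4, had no count in wires 2 and 3, and stood at 7.01 and 13.2 CPM in blood. EFNB2, the arterial ephrin ligand, had no count in wire 3 but stood at 60.9, 37.5 and 81.4 CPM in wires 1, 2 and 4, against 5.35 and 14.9 in blood. The fold change was positive for all 12 arterial endothelial genes tested and for 37.9% of all genes. The arterial list had a median of 0.86, and 0 of its members lay above both blood libraries in every wire, beside 2.95% of all genes. The endothelial list had a within-pig median of 2.49 for 243K and -1.39 for 248K, and the arterial list 2.57 and -0.58. KDR was thus high in wire 3, where CDH5 was near 0 and SEMA3G and EFNB2 had no count.

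T, NK and B cell genes mostly had lower levels on the wire than in blood, and none in these lists passed the test. Of 32 T and NK cell genes tested 0 passed in edgeR and 29 had a negative fold change, where 37.9% of all genes had a positive one. Below both blood libraries in every wire lay 15 of the 32, where the same held for 14.8% of all genes tested. The T and NK cell list had a median log2 fold change of -1.56. B cell genes had a median of -1.33, with 18 of 18 negative and 9 below both blood libraries. CD3E, a chain of the T cell receptor complex, stood at 29.2, 48.5, 37.6 and 38.7 CPM in wires 1 to 4 and at 178.1 and 86.5 CPM in blood. LEF1 and TCF7 encode related transcription factors of T cells. LEF1 stood at 42.03, 107.9, 96.0 and 69.1 CPM against 416.5 and 196.3, and TCF7 at 195.1, 201.8, 254 and 174.6 CPM against 780.0 and 482. The wires were close to each other for these genes and did not reach either blood library. MS4A1, the B cell antigen CD20, stood at 9.66, 0, 19.4 and 23.2 CPM against 150.6 and 64.6.

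PTPRC, which encodes the pan-leukocyte phosphatase CD45, stood at 362.5, 429, 1015 and 399.7 CPM against 3198 and 1401, below blood in every wire. Neutrophil and monocyte lists were nearer to blood on the TMM scale. Neutrophil genes had a median of -0.37, against -0.34 over all genes, with 3 of 21 below both blood libraries beside 14.8% of all genes. On that scale the neutrophil list was close to the background. Its median was 0.02 with RLE scaling. With no scaling, neutrophil genes took a smaller share of counts on every wire (0.055% to 0.0651%) than in blood (0.141% and 0.154%). For pigs 243K and 248K in turn, the unscaled log2 ratios of shares came to -1.35 and -1.27 for neutrophil genes. For monocyte and macrophage genes they came to -0.63 and -2.24, so the closeness of both lists to blood depends on the scaling. ARG1, an arginase of neutrophil granules in humans, stood at 7.42, 79.5, 93.2 and 10.00 CPM against 222 and 104.5, with the lower pair in pig 243K. Monocyte and macrophage genes had a median of -0.28, with 1 of 18 below both blood libraries, the lysosomal protease gene CTSS at 18.2, 3.79, 60.5 and 54.1 CPM against 212 and 76.7.

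The 4 genes with a symbol and the smallest p among those lower on the wire were MNDA, NANS, ADD3 and CENPE, none of which passed in edgeR (adjusted p = 0.190, 0.190, 0.233 and 0.233). MNDA, a nuclear antigen of myeloid cells, stood at 52.8, 5.68, 35.7 and 38.2 CPM in wires 1 to 4 and at 279.7 and 119.6 CPM in blood. NANS, a sialic acid synthase, stood at 33.04, 20.8, 67.8 and 35.5 CPM against 258.5 and 162.5. ADD3, a protein of the membrane skeleton, stood at 32.6, 47.7, 89.3 and 69.6 CPM against 427.5 and 180.6. In all of these every wire was below both blood libraries. CENPE, a kinesin of dividing cells, stood at 46.3, 3.79, 15.9 and 21.8 CPM against 208.9 and 75.8. The cell cycle list as a whole had a median of -1.30 over 10 genes, 3 of them below both blood libraries, beside 14.8% of all genes.

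Ribosomal protein genes had the lowest median of any list, -1.64 over 45 genes tested. In edgeR 0 passed, and 22 had an unadjusted p under 0.05 on the lower side, beside 2.41% of all genes. Below both blood libraries in every wire lay 31 of the 45, beside 14.8% of all genes. RPS18, a protein of the small subunit, stood at 21.4, 37.5, 127.1 and 67.8 CPM in wires 1 to 4 and at 416.5 and 173.8 CPM in blood, and RPL3, of the large subunit, at 100.7, 169.2, 173.6 and 128.2 CPM against 799 and 379. The list took a nearly equal share of every wire, 0.467%, 0.557%, 0.487% and 0.460% of counts, against 2.35% in blood 1 and 1.87% in blood 3. Its within-pig median was -2.53 for 243K and -0.62 for 248K on the TMM-scaled log2(CPM + 1) scale, while the unscaled log2 ratio of shares was -2.34 and -1.84, so the gap between the pigs depends on the scaling. Without wires 2 and 3, a choice made after seeing the data, 23 of 45 were called lower in edgeR, beside 2.96% of all genes.

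Interferon response genes had a median of -1.31 over 33 genes tested, with 0 passing in edgeR and 15 below both blood libraries in every wire, beside 14.8% of all genes. With RLE scaling 9 were, beside 8.72% of all genes. EIF2AK2, the kinase PKR that senses double-stranded RNA, stood at 140.0, 62.8, 143.9 and 93.7 CPM against 711.5 and 296. IFIH1, the RNA sensor MDA5, stood at 79.6, 36.7, 131.0 and 112.3 CPM against 495 and 208.8. Both were below blood in every wire, and blood 1 held more of each than blood 3. CXCL10, an interferon-induced chemokine named after its values were seen, was the 1 gene called lower with the pig as a block (edgeR adjusted p = 0.0451). It stood at 455.6, 0, 1.57 and 153.7 CPM in wires 1 to 4 and at 336.7 and 160.0 CPM in blood. Wire 1 was above both blood libraries and the wires of pig 248K were at or near 0, and without the block the adjusted p in edgeR was 1.

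**Figure D4:**
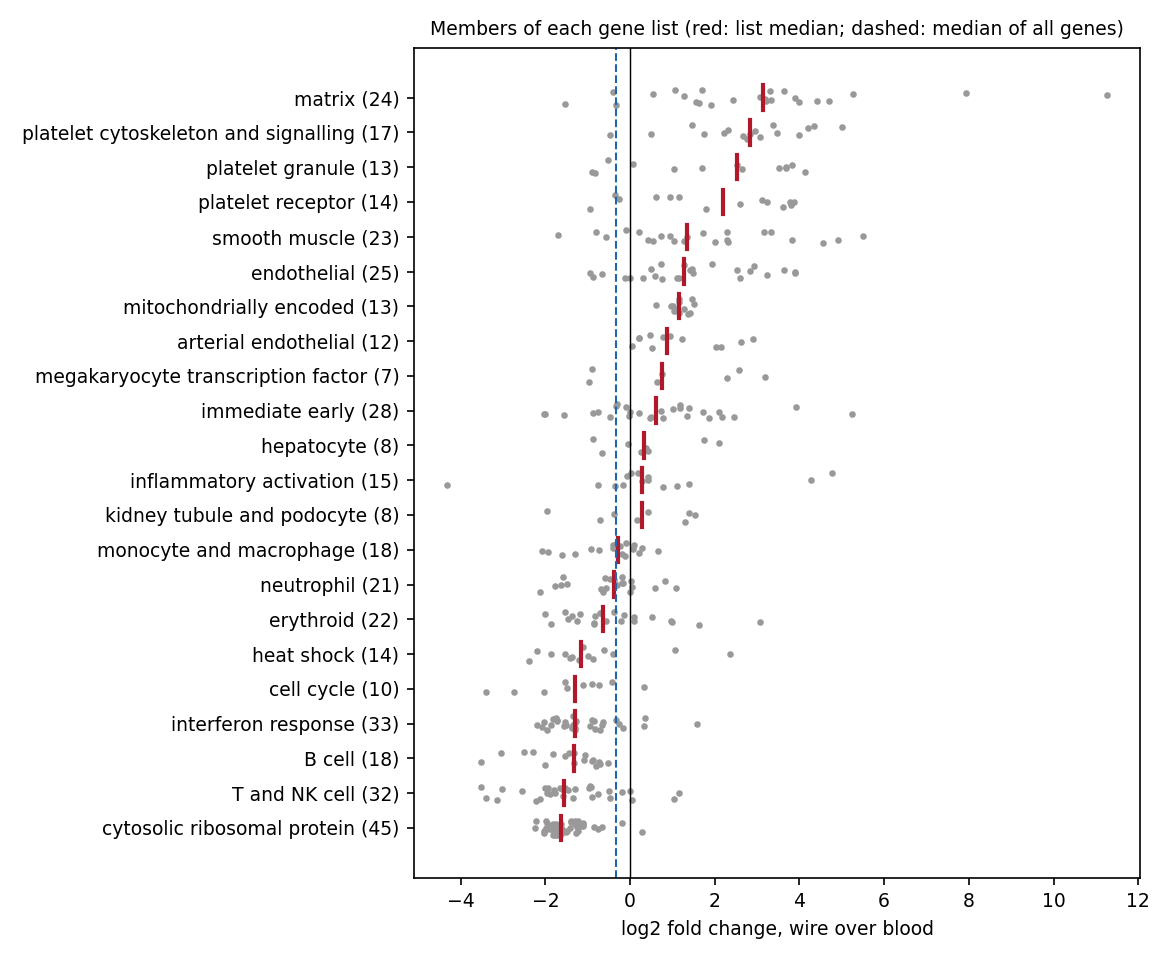
Each grey point is one gene of a list, at its log2 fold change of wire over blood on the x axis; red bars are list medians, the dashed line is the median of all genes (-0.34), and the number of genes tested follows each list's name. Matrix (3.13) and the 3 platelet lists (2.19 to 2.84) stand at the top, and ribosomal protein (-1.64) and T and NK cell genes (-1.56) at the bottom.

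Red cell RNA differed widely between wires. HBB (chr9:4800683-4801941), the beta chain of haemoglobin, stood at 4132, 30510, 16260 and 1618 CPM in wires 1 to 4 and at 35130 and 24170 CPM in blood. Wire 2 lay between the blood libraries, and the wires of pig 243K were the lowest. HBB had a log2 fold change of -1.18 (SE 1.05, edgeR adjusted p of 1). Some haemoglobin genes are near-identical copies of each other, so counts can be uncertain gene by gene. The haemoglobin genes summed here are those found under HBB, HBM, HBQ1 and HBZ, without HBA, HBA1 or HBA2. Together these took 0.419%, 3.13%, 0.856% and 0.190% of the wires' counts and 3.69% and 4.07% of the blood counts. HBM, a haemoglobin mu chain, stood at 93.5, 222, 407 and 67.8 CPM against 990.1 and 609. ALAS2, the haem synthesis enzyme of red cell precursors, stood at 258, 961.7, 817 and 83.2 CPM against 1867 and 860.5, with wire 2 above blood 3.

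The erythroid list had a median of -0.64 over 22 genes tested, with 0 passing in edgeR, and within-pig medians of -1.20 in pig 243K and -0.0002 in pig 248K, where the unscaled log2 ratio of shares was -3.05 and -0.91. Some of its members went the other way. BNIP3L, which clears mitochondria from maturing red cells, stood at 1295, 758, 5476 and 988 CPM in the wires and at 391 and 117.7 CPM in blood. GYPC, a glycophorin of the red cell membrane, stood at 84.9, 78.0, 251 and 61.4 CPM against 41.9 and 35.3. Neither overlapped blood and neither passed (edgeR adjusted p = 0.468 and 1), and wire 3 was the highest in both.

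**Figure D5:**
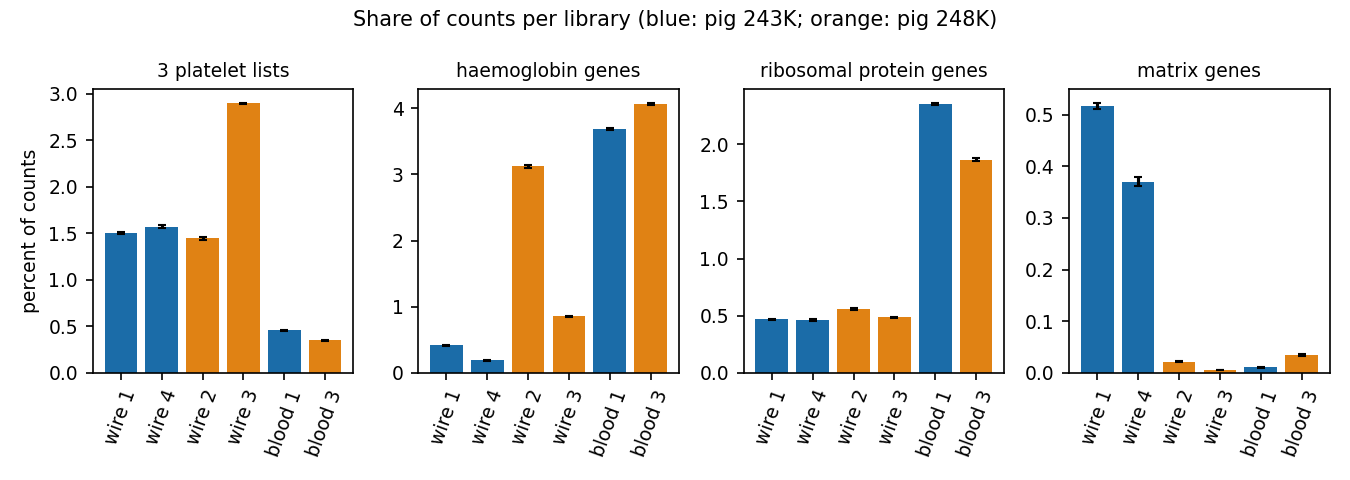
Percent of each library's counts (y axis, from 0) taken by the 3 platelet lists, the haemoglobin genes, the ribosomal protein genes and the matrix genes; bars are single libraries, blue for pig 243K and orange for pig 248K, with Wilson 95% intervals that cover counting error only. Platelet shares are 1.44% or more on every wire and at most 0.456% in blood, ribosomal protein shares are the reverse, and haemoglobin and matrix shares split the wires by pig.

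For mitochondrially encoded genes the median was 1.16, with 13 of 13 positive beside 37.9% of all genes, and 0 passed in edgeR. ND1, a subunit of respiratory complex I, stood at 2223, 1185, 173.1 and 1833 CPM in wires 1 to 4 against 594 and 428 in blood, so that wire 3 was below both blood libraries. CYTB, the cytochrome of complex III, had the same order at 4718, 2504, 483 and 4309 CPM against 1262 and 928. Their list took 3.56%, 1.99%, 0.272% and 4.33% of wire counts and 1.39% in each blood library. The 2 abundant identifiers without a name are not in this list.

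Lists of cell response did not share a direction. Immediate early genes, which are transcribed within minutes of a stimulus, had a median of 0.61 over 28 genes, and FOSB, an AP-1 factor, was high in wire 1 at 85.6 CPM and in wire 2 at 30.7 CPM but had no count in wire 3 and 1.36 CPM in wire 4. KLF2, a flow-induced factor of endothelium that T cells also express, stood at 16.4, 15.1, 33.6 and 20.01 CPM against 113.3 and 62.3. Heat shock genes had a median of -1.16 over 14 genes, against -0.34 over all genes. The fold change was negative for 12 of them, where it was positive for 37.9% of all genes. Below both blood libraries in every wire lay 4 of the 14, beside 14.8% of all genes. Among them HSP90AB1, a constitutive chaperone, stood at 74.6, 90.9, 224.9 and 150.1 CPM against 825 and 423, while HSPB1, a small heat shock protein, stood at 119.1, 151.8, 281 and 80.9 CPM against 33.03 and 28.7. Those 2 chaperones lay on opposite sides of blood in every wire. Inflammatory genes had a median of 0.29 over 15 genes, and 1 of them was called higher in edgeR, beside 0.0486% of all genes.

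Liver and kidney genes were read because the wires came from arteries of those organs. Hepatocyte genes had a median of 0.32 and kidney tubule and podocyte genes a median of 0.29, each over 8 genes tested of 18 and 15 listed, and 0 members of either passed in edgeR. Kidney wires against liver wires gave 0 of 13816 genes at an edgeR adjusted p under 0.05 and 141 at an unadjusted p under 0.05 (1.02%), where 0.236 was the smallest adjusted p.

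The microbrush, used in liver and kidney arteries of the same pigs, is the sample most like the wire. Of 16439 genes tested between wire and brush 0 rose and 0 fell in edgeR, with 81 higher (0.493%) and 437 lower (2.66%) on the wire at an unadjusted p under 0.05, and DESeq2 called 5 higher and 96 lower. On a TMM scale common to 20 libraries, TUBB1 ran from 1246 to 6203 CPM on the wires (median 1404), from 6.06 to 5929 on the brushes (median 263) and from 10.1 to 29.5 in aorta, and was 88.9 and 247 in the blood libraries. The brushes ran from below the aorta libraries to nearly the highest wire. PPBP had medians of 446 CPM on the wires, 103.8 on the brushes and 14.3 in aorta, and TREML1 medians of 87.4, 21.8 and 4.62. GNG11 had medians of 227, 63.8 and 9.92 CPM and KDR of 128.5, 33.8 and 10.7. Aorta was thus below the wires in each of these genes. With no scaling, the 3 platelet lists together took a mean of 1.85% of counts on the wires and 1.72% on the brushes. Their share ran from 1.44% to 2.90% on the wires and from 0.517% to 3.53% on the brushes.

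For SMTN, TAGLN, LAMA5 and ELN the wires had lower medians than the brushes and aorta. SMTN ran from 33.4 to 174.1 CPM on the wires, from 55.8 to 2181 on the brushes and from 1343 to 3154 in aorta, without overlap of wires and aorta. TAGLN had medians of 213 CPM on the wires, 636 on the brushes and 586 in aorta, and LAMA5 of 88.0, 497 and 464. ELN had medians of 498, 1372 and 928.5 CPM. HBB ran from 149.2 to 5490 CPM on the brushes and from 6.28 to 30.3 in aorta, and its difference of 3.77 between wire and brush (log2, SE 0.95) did not pass (edgeR adjusted p = 0.392). For the other genes named here the adjusted p between wire and brush was 0.9998 in edgeR.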

How the data were processed

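Bulk RNA sequencing of pig samples was analysed from the authors' deposited table of unscaled estimated counts per Ensembl gene in 21 samples; because 11.9% of these were fractional, all were rounded. The labels name an RNAdvance Tissue kit at reduced volume for total RNA and SMARTer Pico for libraries. Salmon, DESeq2 and Sscrofa11.1 are named in the submitters' processing notes; their versions, the annotation and any trimming are not given in the sources used here. Of 24358 genes 14692 had a symbol in the supplied list. PF4, VWF, ITGA2B and GP1BA are not in it under those symbols.

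Groups, pigs and organs came from the labels, and blood 2 was left out for its depth. Wires and blood were compared with edgeR 4.0.16 in R 4.3.3 (filterByExpr with a minimum count of 10, TMM, robust quasi-likelihood test, Benjamini-Hochberg adjusted p under 0.05). The CPM values were computed from the deposited counts after TMM scaling of these 6 libraries, or of 20 where brush and aorta are given. Genes detected were counted after rarefaction to 1000000 counts (vegan 2.7.1). Shares have Wilson 95% intervals, which like the 3-count floor cover counting error only. Pig is the animal itself, so it pairs wires with blood; the deviation of a wire from its group correlated with that of its pig's blood at -0.339, 0.0571, -0.617 and -0.413 in wires 1 to 4. Within each group 0.167% to 0.525% of genes had equal counts in a pair of libraries, so none was a copy.

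Named genes were to be up to 12 per direction with the largest changes that passed and had a symbol, else the 4 smallest p; GNG11, PPBP, TUBB1, ELN and HBB; and in each list the 4 members of smallest p or fewer. THBS1, F5, GP9, GP6, CAVIN2, MYLK, RGS18, ESAM, CDH5, FN1, CXCL10 and PTPRC were added after their values were seen. Some genes that the rule names are not reported here. The members and the 22 lists were chosen with earlier results of these data known, and lists are described by counts and medians only. The script was tested on simulated data. Alternatives were RLE scaling, other filters, DESeq2 1.42.0, limma 3.58.1 voom, a threshold of 0.01, the pig as a block, other sets of libraries, and each replicate left out. The fits without wires 2 and 3 and with voom quality weights were chosen after seeing the data.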

Additional observations from a re-analysis of the deposited data

Results flagged for a closer look

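Single libraries stood far from the rest of their group in 22 checks of 69 genes and of the list shares within groups, which is 19.1% of the checks run, by Dixon's test at its 95% level, which chance meets in about 1 of 20. Of the 12 such genes among the wires, 10 were due to wire 3, the deepest wire library and the one with the fewest genes at fixed depth. In CPM, wire 3 held 5813 of TUBB1, 5833 of MYL9, 384 of TREML1, 851 of GNG11, 9231 of F13A1 and 3223 of THBS1 among platelet genes. It also held 595 of KDR, 5476 of BNIP3L, 251 of GYPC and 1015 of PTPRC, so that on this scale genes of other cell types stood out in the same library. These CPM depend on the scaling, since the TMM factor was 0.514 for wire 3 and 0.994 to 1.13 for the other wires. The check of single genes was not repeated without scaling. With no scaling, the share of counts in wire 3 was 1.80% in the platelet cytoskeleton and signalling list and 2.90% in the 3 platelet lists together. ESAM stood apart in wire 2 at 57.9 CPM and ENSSSCG00000020580 in wire 1 at 844 CPM.

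Among the brushes, microbrush 6 stood apart with 5929 CPM of TUBB1, 2477 of PPBP, 384.8 of TREML1 and 1134 of GNG11; on the same scale PPBP and GNG11 were above wire 3 and the other pair below it. Microbrush 1 had 5490 CPM of HBB and microbrush 9 had 11810 CPM of ELN. Aorta 4 had 1685 CPM of TAGLN and 26.6 of GNG11, the highest of the aorta libraries in each.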

How the results depend on the processing

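The 8 genes called higher on the wire depended on the settings. The count was 3 with RLE scaling, 5 with no filter on low counts, 0 at a minimum count of 50, 236 by DESeq2, 43 by limma voom, 140 by voom with quality weights, 2 at an adjusted p under 0.01 and 4 without the 2 abundant identifiers. It was 0 with blood 2 included and 0 with all libraries but blood 2 in a common fit. It was 195 in pig 243K alone and 0 in pig 248K alone, fits with 1 blood library each, which is assumed to vary like the 2 wires. It was 25 with the kidney wires alone, 0 with the liver wires alone and 337 without wires 2 and 3. Leaving out each library in turn gave 0 to 24. Limma voom called only 1 of the 8 genes of the main fit and the fit with no filter 3. Voom with quality weights called 7 of them and DESeq2 all 8. With the pig as a replicate block 16 genes were higher and 1 lower. In the other fits the count of lower genes was 2 by voom, 79 with quality weights, 705 in pig 243K alone, 9 with the kidney wires and 481 without wires 2 and 3. Between wire and brush DESeq2 gave 5 higher and 96 lower. The cause of these differences was not tested.

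List medians moved by more than the spread between libraries as follows. Platelet granule genes had 3.05 with RLE scaling, 3.05 by DESeq2, 1.38 by voom, 3.22 with blood 2, 1.32 in pig 243K alone, 1.98 with kidney wires, 1.91 without wires 2 and 3, and 2.01 to 3.14 with a library left out. Platelet cytoskeleton and signalling genes had 1.59 in pig 243K alone. Erythroid genes had -0.14 with RLE scaling, -0.14 by DESeq2, -1.39 by voom, -1.16 with quality weights, 0.12 with blood 2, -1.46 in pig 243K and 0.0084 in pig 248K alone, and -1.28 without wires 2 and 3. Neutrophil genes had 0.015 with RLE scaling, 0.0082 by DESeq2, -0.028 at a minimum count of 50, -1.12 by voom, -0.76 with quality weights and 0.24 with blood 2. By voom the medians were -1.76 for monocyte and macrophage, 0.42 for matrix, -1.75 for hepatocyte, -2.06 for kidney and -0.21 for immediate early genes. In pig 248K alone they were -0.42 for matrix, -6.91 for hepatocyte, -1.91 for kidney, -4.69 for cell cycle, -1.55 for endothelial and -1.55 for inflammatory genes. In pig 243K alone ribosomal protein genes had -2.68. With blood 2 T and NK cell genes had -0.87 and B cell genes -0.64. Some moves within that spread also changed the sign of a median. Among them, endothelial genes had -0.24 by voom and -0.44 with the pig as a block. Arterial endothelial genes had -0.75 by voom and -0.70 in pig 248K alone, and inflammatory genes -0.49 by voom and -0.73 with the block. Matrix genes kept their sign with the block but fell to 0.85.

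With the pig as a replicate block the medians were 1.44 for platelet granule, -1.13 for erythroid, -0.78 for neutrophil, -4.45 for hepatocyte and -2.96 for cell cycle genes, and the block changed the call of MYH11, COL5A1, ELN and CXCL10 among the genes named, the last on the lower side.

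The 15 interferon genes below both blood libraries were 9 with RLE scaling, 6 with no filter, 0 with blood 2, 29 in pig 243K alone, and 10 to 28 with a library left out. The share of all genes below both blood libraries was 14.8% in the main fit and 8.72% with RLE scaling, and was not computed for the other settings. Fewer libraries make such a gap easier to meet, so counts in this paragraph from fits with fewer libraries cannot be read as stronger results. The 31 ribosomal protein genes were 5 with no filter and 0 with blood 2. The 15 T and NK cell genes were 0 with blood 2, 27 in pig 243K alone, 24 in pig 248K alone, 23 with the liver wires and 23 without wires 2 and 3.

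Some genes turned sign, none of which had passed: CDH5 (-0.72 by voom, -1.06 with the pig block, -3.01 in pig 248K alone), EFNB2 (-1.19 by voom), SEMA3G (-1.33 by voom, -3.84 with the block, -8.95 in pig 248K alone), ALAS2 (0.0084 in pig 248K alone), CXCL10 (0.029 with blood 2 and 0.24 without wires 2 and 3) and FN1 (-0.13 in pig 248K alone). The biological coefficient of variation was 1.30 between these libraries. A count of 0 in both blood libraries allows up to 0.280 CPM over the group.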
